A study of Mus musculus with 2 samples.

Results

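Dendritic cells that have taken up antigen mature, leave the tissue along lymphatic vessels and present the antigen to T cells in the draining lymph node, and this report describes 7 genes that accompany that step in mouse CT26 tumors. The genes *Ccr7*, *Ccl17*, *Ccl22*, *Ccr4*, *Fscn1*, *Il12b* and *Il4i1* were taken by symbol from the 33696 genes listed, so all 7 were found. Single-cell RNA of subcutaneous CT26 colon carcinoma was measured in 2 libraries, 1 from tumors left untreated (UT) and 1 from tumors treated with BUP-Gel (BUP-treated), a hydrogel that releases the local anesthetic bupivacaine at the tumor. Each library came from 3 tumors pooled before sequencing, grown in young male BALB/c mice per the study's methods, and from sorted live CD45+ and CD45- cells mixed with an excess of CD45+ cells. Gel without the drug was not analysed here, so the drug and its carrier cannot be told apart. A single library per condition leaves no replicate against which to test a difference, so sizes are given without p-values. Every interval is at 95%, is exact (Poisson for a level, binomial for a share, conditional binomial for a ratio) and covers counting error only, not differences between tumors. Intervals of levels and ratios also leave out how unevenly a gene's UMIs were spread over cells.

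*Ccr7* encodes the receptor that guides mature dendritic cells, and naive and central memory T cells, toward the ligands CCL19 and CCL21 of lymphatic vessels and lymph nodes. *Ccl17* and *Ccl22* encode chemokines that dendritic cells secrete and that attract T cells carrying their shared receptor, encoded by *Ccr4*, which is found on helper and regulatory T cells. *Fscn1* encodes fascin, an actin-bundling protein that forms the long protrusions of mature dendritic cells and is also made by many tumor and mesenchymal cells. *Il12b* encodes the p40 chain that IL-12 and IL-23 share, and *Il4i1* encodes a secreted enzyme that consumes aromatic amino acids and restrains T cell growth.

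On the GRCm39 build *Ccl22* (ENSMUSG00000031779) lies at chr8:95471226-95478327 and *Ccl17* (ENSMUSG00000031780) at chr8:95534358-95538664, both on the plus strand. They are separated by 56030 bases that hold 1 protein-coding gene, *Cx3cl1*, another chemokine. The other members lie apart from them and mostly from each other. These are *Ccr7* (ENSMUSG00000037944) at chr11:99035022-99045911 on the minus strand, *Ccr4* (ENSMUSG00000047898) at chr9:114319384-114333984 on the minus strand and *Fscn1* (ENSMUSG00000029581) at chr5:142946098-142958953 on the plus strand. *Il12b* (ENSMUSG00000004296) is at chr11:44290808-44305505 and *Il4i1* (ENSMUSG00000074141) at chr7:44465354-44490233, both on the plus strand.

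By Pearson r in the data below, *Ccl17* and *Ccl22* had the most similar pattern of all pairs of members. The sequences just upstream of these neighbours are therefore shown. They are the 250 bases before each gene's start from RefSeq on the earlier build GRCm38.p6, both on the plus strand and read 5′ to 3′, at chr8:94810203-94810452 and chr8:94745434-94745683. Capitals mark a match to TTCNNNNGAA, 1 form of STAT-type sites that reads the same on both strands, which begins 154 bases before the start of *Ccl17*. Forms with another spacer length were not searched and are not marked.
Ccl17: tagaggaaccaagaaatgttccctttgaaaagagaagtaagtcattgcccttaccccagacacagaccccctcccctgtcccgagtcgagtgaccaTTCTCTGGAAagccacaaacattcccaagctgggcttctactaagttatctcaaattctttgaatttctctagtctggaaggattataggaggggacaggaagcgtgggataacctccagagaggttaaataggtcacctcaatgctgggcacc
Ccl22: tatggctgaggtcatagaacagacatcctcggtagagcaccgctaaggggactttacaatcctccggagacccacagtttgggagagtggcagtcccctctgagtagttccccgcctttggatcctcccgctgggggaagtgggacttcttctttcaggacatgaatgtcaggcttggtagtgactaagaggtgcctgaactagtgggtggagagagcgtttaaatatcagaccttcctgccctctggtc
A match to TTCNNNNGAA stood in 1 of the 6 members with an upstream sequence (*Ccr7* is named only) and in 1923 of 32851 promoters of the same length (5.85%). Matches to GGGNNNTTCC, a common form of NF-kB-type sites searched on both strands, stood in 0 of the 6 and in 1527 of the 32851 (4.65%). A match describes these letters in this window and says nothing on binding, and a window without a match says nothing on the factor.

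The UT library held 7163 cells after filtering, with a median of 8430 unique molecular identifiers (UMIs, counted molecules) per cell, and the BUP-treated library 6776 cells with a median of 10420. Cells were clustered with the 7 members left out of the genes used, and no deposited annotation was used, so classes carry "-like" names from marker genes. The libraries shared 76 barcode sequences, of which 68 remained after filtering, and none of these was in the migratory or cDC1-like cells. Levels are the summed UMIs of a gene per 1000000 UMIs of a class (CPM). They are compared across classes and libraries for 1 gene at a time and not between genes.

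One cluster of 140 cells, 73 UT and 67 BUP-treated, was called migratory dendritic-like. It held 70.8% of all *Ccr7* UMIs, 79.1% of *Ccl22*, 81.6% of *Il12b* and 75.5% of *Il4i1* over both libraries, but 49.0% of *Ccl17*, 29.4% of *Fscn1* and none of *Ccr4*. All 10 markers of migratory dendritic cells were detected in it, among them *Cacnb3* at 783 CPM, *Mreg* at 427 CPM and *Nudt17* at 251 CPM over both libraries. All 8 markers of cDC1 cells, the conventional subset that cross-presents antigen, were lower there than in the cDC1-like cluster. *Xcr1* was at 5.33 CPM against 253 CPM and *Tlr3* at 0 against 119 CPM, whereas *Irf8*, which other dendritic cells also express, was at 894 CPM against 1836 CPM. The genes that led the cluster included *Ccl22*, *Il12b*, *Ccr7* and *Il4i1* although they had not been used to form it. Migratory dendritic-like cells were 1.26% of UT immune cells (interval 0.99% to 1.58%) and 1.66% of BUP-treated immune cells (1.29% to 2.10%), so the intervals overlapped. The cDC1-like cells were 1.21% (0.94% to 1.52%) and 2.17% (1.75% to 2.67%), with intervals apart. Another cluster, of 83 UT and 62 BUP-treated cells, expressed the cDC2 and monocyte-derived markers *Cd209a* and *Mgl2* together with the osteoclast genes *Ctsk*, *Acp5* and *Mmp9*, and it is called the *Cd209a* and *Ctsk* cluster without a cell type name.

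All members but *Ccr4* had their highest level of all classes in migratory dendritic-like cells, which is a description since the cells were grouped by expression. Over both libraries *Ccr7* was at 3955 CPM there (interval 3840 to 4073), followed by CD4 and gamma-delta T-like cells at 257 CPM (222 to 296). *Ccl22* was at 1567 CPM (1495 to 1642), then 128 CPM (110 to 148) in the *Cd209a* and *Ctsk* cluster and 17.4 CPM (12.7 to 23.3) in cDC1-like cells. *Ccl17* took the same order, with 456 CPM (417 to 497), then 183 CPM (162 to 207) and 37.9 CPM (30.7 to 46.1). The order of these 3 classes was thus separated by counting error for both chemokines.

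*Il12b* was at 720 CPM (671 to 771) in migratory dendritic-like cells, then 29.0 CPM (22.8 to 36.3) in cDC1-like cells and 10.99 CPM (6.28 to 17.8) in the *Cd209a* and *Ctsk* cluster. *Il4i1* was at 427 CPM (390.0 to 467), and the next class, the *Cd209a* and *Ctsk* cluster, was at 17.9 CPM (11.7 to 26.2). *Fscn1* was at 3347 CPM (3240 to 3455), and the classes after it were not immune, fibroblast-like cells at 136 CPM (119 to 155) and the *Krt20* and *Nppb* cluster at 122 CPM (118 to 126), whose intervals overlapped. *Ccr4* went against this pattern, with 0 UMIs in 140 migratory dendritic-like cells, where 3 UMIs would give 5.32 CPM (UT) and 5.34 CPM (BUP-treated). Its highest level was in CD4 and gamma-delta T-like cells at 13.2 CPM (6.35 to 24.4, from 10 UMIs).

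**Figure D1:**
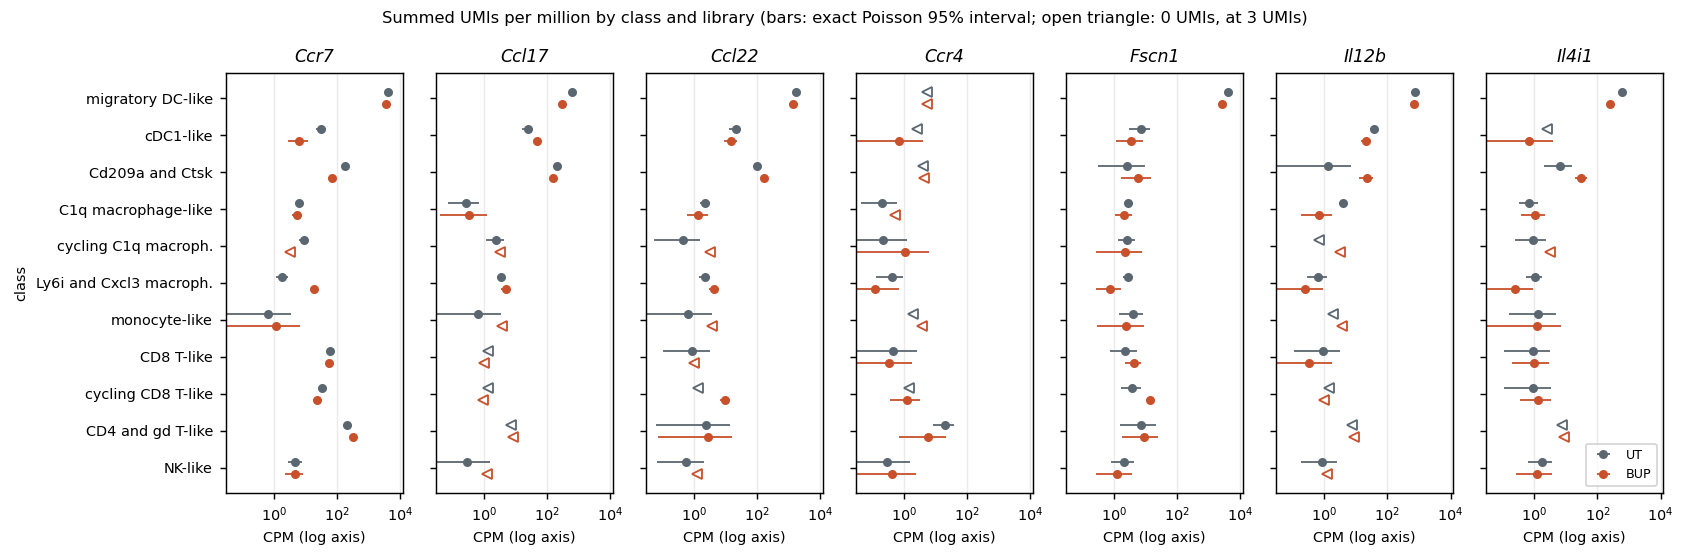
Summed level of each member (CPM, log axis) in 11 immune classes, UT in grey and BUP-treated in orange, with exact Poisson 95% intervals; open triangles stand at 3 UMIs where none was counted. All members but *Ccr4* sit farthest to the right in migratory dendritic-like cells, whereas *Ccr4* is highest in CD4 and gamma-delta T-like cells.

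The cluster that was about 1 in 100 cells (1.02% of UT and 0.99% of BUP-treated cells) held the larger part of the UMIs of most members. It held 72.2% of all UT UMIs of *Ccr7* and 69.1% of BUP-treated ones, and 76.4% and 87.6% for *Il12b*. For the 2 chemokines the cluster's part was smaller in the BUP-treated library, at 83.2% against 74.4% for *Ccl22* and 57.3% against 38.0% for *Ccl17*. The *Cd209a* and *Ctsk* cluster added 26.8% and 23.8% of *Ccl17* UMIs, and cDC1-like cells 4.69% and 15.6%. A cluster with mixed T and myeloid genes added 0.67% and 9.78%. For *Il4i1* migratory dendritic-like cells held 83.0% of UT and 62.2% of BUP-treated UMIs. The *Cd209a* and *Ctsk* cluster held 1.23% and 9.13% of them, and the mixed cluster 0.98% and 7.83%.

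*Fscn1* was split between dendritic and non-immune cells. Migratory dendritic-like cells held 40.7% of its UT UMIs and 20.5% of its BUP-treated UMIs, and non-immune cells 56.0% and 77.0%. Non-immune cells made up 17.2% of UT and 38.6% of BUP-treated cells, and the mix of sorted cells was set before loading. Summed over non-immune cells *Fscn1* had a log2 ratio of BUP-treated over UT of -0.01, and in fibroblast-like cells, 15 UT and 64 BUP-treated, it was at 189 and 125 CPM, a ratio of -0.59 (-1.03 to -0.13). The non-immune classes were mixed in different proportions in the libraries.

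**Figure D2:**
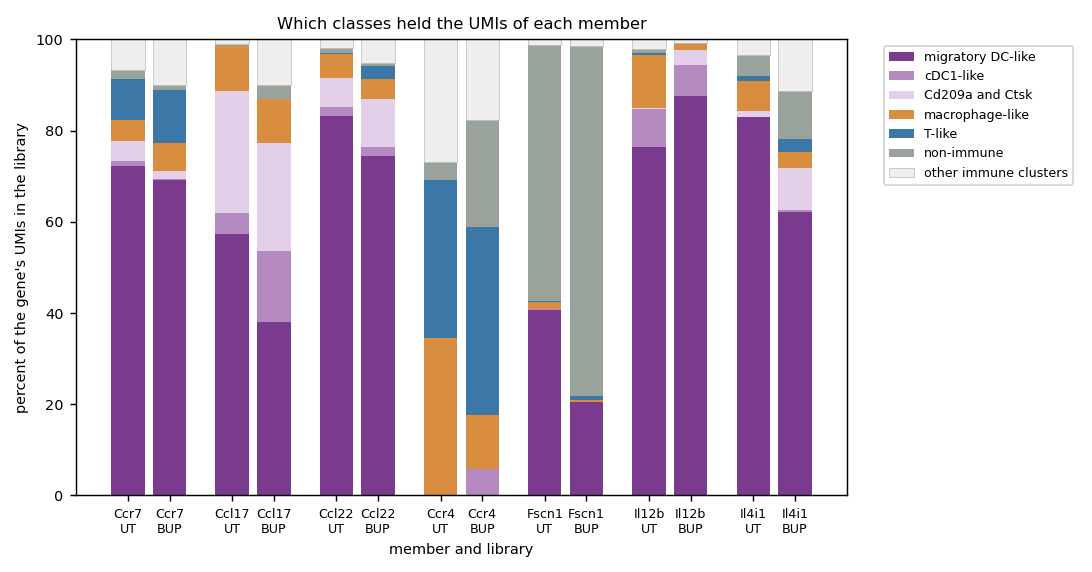
Stacked bars of the percentage of each member's UMIs (0 to 100%) held by each class, for UT and BUP-treated libraries side by side. Migratory dendritic-like cells fill most of the bars of *Ccr7*, *Ccl22*, *Il12b* and *Il4i1*, non-immune cells fill most of the *Fscn1* bars, and the *Ccr4* bars rest on 26 and 17 UMIs.

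Single migratory dendritic-like cells usually held several members at once. When 2000 UMIs were drawn at random from every cell, a depth that 122 of the 140 cells reached, 106 cells (86.9%) had at least 3 of the 6 members other than *Ccr4* and 7 cells (5.74%) had all 6. Among 155 thinned cDC1-like cells 1 had at least 3 and 135 had none, and among 139 thinned cells of the *Cd209a* and *Ctsk* cluster 3 had at least 3. Before thinning, 25 of the 140 migratory dendritic-like cells (17.9%) had all 6.

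*Ccl17* occurred inside the *Ccl22*-positive cells. All 60 migratory dendritic-like cells with *Ccl17* also had *Ccl22*, compared with 62 of the 80 cells without *Ccl17*. At 2000 UMIs per cell the counts were 35 of 38 and 60 of 84. Across the 140 cells, which share 2 libraries and differ in depth, the log-normalized values of *Ccl17* and *Ccl22* had a Pearson r of 0.52 (0.61 within UT and 0.41 within BUP-treated cells), and those of *Ccl17* and *Il4i1* 0.34. *Ccr7* and *Fscn1* were nearly unrelated (-0.05), as were *Ccl17* and *Il12b* (-0.00), and *Il12b* and *Il4i1* had -0.14.

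**Figure D3:**
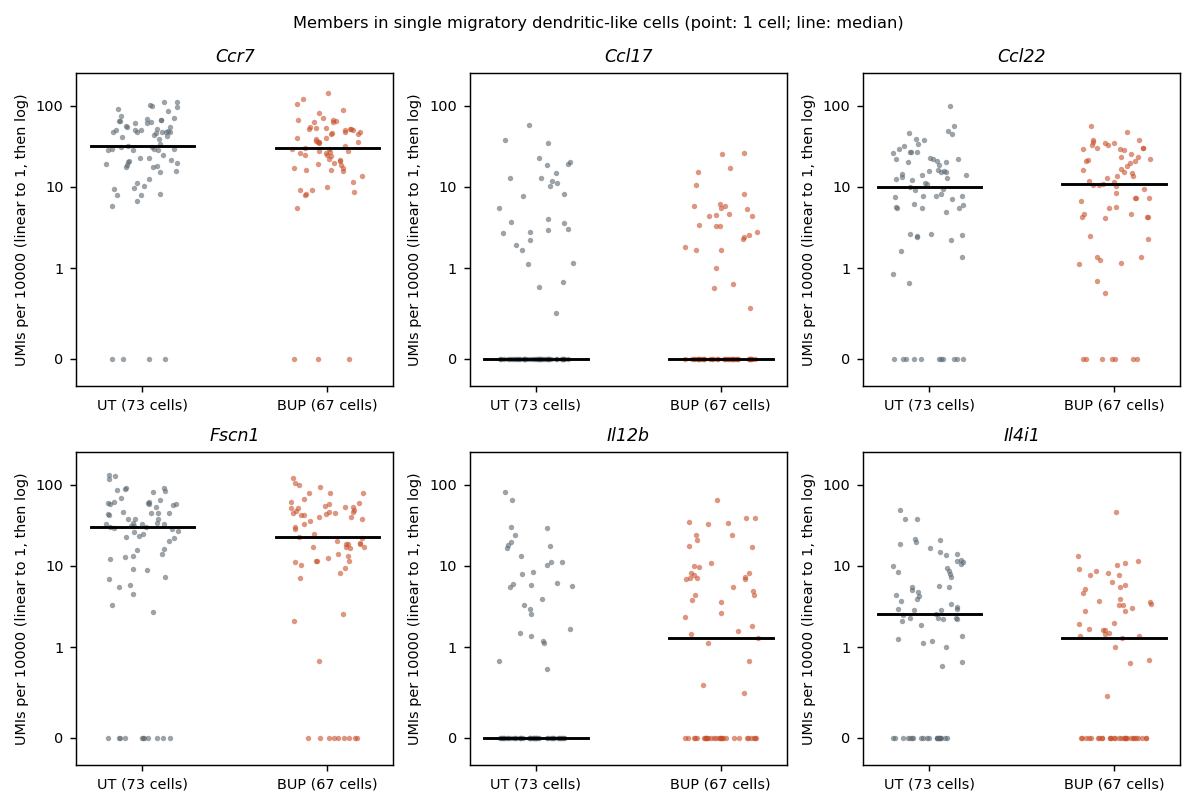
UMIs per 10000 of 6 members in each migratory dendritic-like cell (73 UT and 67 BUP-treated), on an axis that is linear up to 1 and logarithmic above, with a line at the median. *Ccr7*, *Ccl22* and *Fscn1* were detected in most cells, whereas *Ccl17* was at 0 in over 50% of cells of both libraries, and the medians of *Il12b* were 0 and 1.31.

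Between conditions, 3 of the 6 members detected in migratory dendritic-like cells were at least 1.5 times lower in the BUP-treated library and none was at least 1.5 times higher. Of the 3278 genes with at least 50 UMIs in these cells, 7.9% were lower and 7.99% higher by that measure, with a median log2 ratio of -0.02.

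*Il4i1* had the lowest ratio. It had 338 UMIs in UT cells (600 CPM) and 143 in BUP-treated cells (254 CPM), a log2 ratio of -1.24 (interval -1.53 to -0.95). It had a UMI in 71.2% of UT cells (59.4% to 81.2%) and in 56.7% of BUP-treated ones (44.0% to 68.8%), and after thinning in 54.8% (41.7% to 67.5%) and 31.7% (20.3% to 45.0%). The BUP-treated library was lower by each measure, and the intervals of the levels were apart while those of the shares overlapped. The median cell had 2.57 and 1.28 UMIs per 10000.

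*Ccl17* had 342 UMIs in UT cells (607 CPM) and 171 in BUP-treated cells (304 CPM), a log2 ratio of -0.997 (-1.27 to -0.73). The share of cells with a UMI was nearly equal, at 42.5% (31.0% to 54.6%) and 43.3% (31.2% to 56.0%). The lower summed level thus came with a like share of *Ccl17*-positive cells. The 5 cells with the most *Ccl17* held 62.0% of its UT UMIs and 57.3% of its BUP-treated UMIs, with up to 69 and 48 UMIs in 1 cell. Without those 5 cells of each library the ratio was -0.80.

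*Fscn1* had 2295 UMIs in UT cells (4073 CPM) and 1472 in BUP-treated cells (2619 CPM), a log2 ratio of -0.64 (-0.73 to -0.54), with 84.9% and 86.6% of cells positive. Thinned cells gave -0.20, and 1 UT cell alone held 194 of the UMIs.

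*Ccl22* and *Ccr7* differed less. *Ccl22* had 990 UMIs in UT cells (1757 CPM) and 774 in BUP-treated cells (1377 CPM), a log2 ratio of -0.35 (-0.49 to -0.21), with 84.9% and 89.6% of cells positive. *Ccr7* had 2363 (4193 CPM) and 2089 UMIs (3716 CPM), a ratio of -0.17 (-0.26 to -0.09), with 94.5% and 95.5% of cells positive. Their medians per cell were close, at 10.0 and 10.9 UMIs per 10000 for *Ccl22* and 31.6 and 30.4 for *Ccr7*.

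*Il12b* had 409 UMIs in UT cells (726 CPM) and 401 in BUP-treated cells (713 CPM), a log2 ratio of -0.03 (-0.23 to 0.18). The share of cells with a UMI was 42.5% (31.0% to 54.6%) in UT and 56.7% (44.0% to 68.8%) in BUP-treated cells, and 30.6% (19.6% to 43.7%) and 46.7% (33.7% to 60.0%) after thinning, with overlapping intervals. The summed level and the share of cells therefore did not go together. In the UT library 5 cells held 75.6% of the UMIs, 146 of them in 1 cell, against 51.9% in the BUP-treated library. Without the 5 cells of each library with the most *Il12b* the log2 ratio was 1.003.

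As background from free RNA, neutrophil-like cells (median 1884.5 UMIs in UT and 2131 in BUP-treated cells, against 7325 and 6784 in migratory dendritic-like cells) had *Ccr7* in 0.64% and 0% of cells and *Ccl22* in 0.16% and 0%. *Ccl17* and *Il12b* had no UMI in any of the 622 neutrophil-like cells from UT or the 428 from BUP-treated tumors, which allows shares of up to 0.591% and 0.858% by exact binomial intervals.

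Transcripts of other cell types differed between the same 2 sets of migratory dendritic-like cells. The 6 CD8 T markers summed to 78.1 CPM (UT) and 491 CPM (BUP-treated), each of the 6 being higher, and the 10 macrophage markers to 720 and 1167 CPM, 7 being higher. The 8 CD4 or regulatory T markers summed to 245 and 507 CPM, 5 being higher and 1 lower with *Cd4* and *Foxp3* at 0 in both. The 5 neutrophil markers summed to 429 and 985 CPM, 3 being higher. The gamma-delta T markers summed to 15.97 and 87.2 CPM, *Cd3e* being higher and *Trdc* and *Trdv4* (1.78 and 0.89 CPM over both libraries) lower. These T cell sums overlap, since all 3 lists hold *Cd3e* and the CD8 and the CD4 or regulatory T lists also *Cd3d* and *Cd3g*. The 10 migratory dendritic markers summed to 5460 CPM (UT) and 4577 CPM (BUP-treated) (log2 ratio -0.25), 8 being lower. Of the 6% of cells of each library with the highest doublet scores, 2 were among the 73 UT cells and 14 among the 67 BUP-treated cells (2.74% and 20.9%). With those cells removed the log2 ratios were -0.75 for *Il4i1*, -0.63 for *Ccl17* and -0.27 for *Fscn1*, against 0.09 for *Ccr7*, 0.04 for *Ccl22* and 0.45 for *Il12b*. Thus *Il4i1* and *Ccl17* were still at least 1.5 times lower, *Fscn1* was lower by less than that, and *Ccr7*, *Ccl22* and *Il12b* changed sign.

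**Figure D4:**
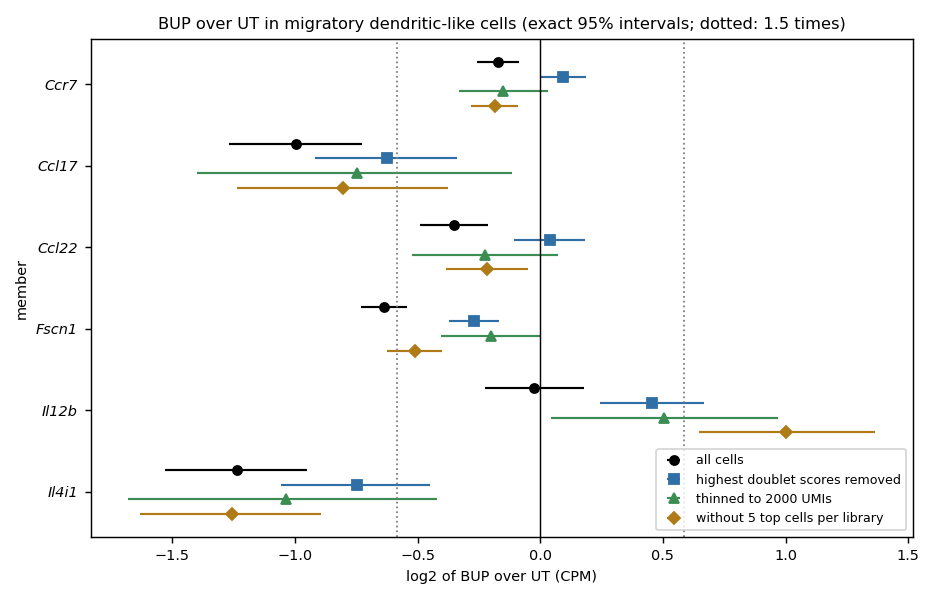
Log2 ratio of BUP-treated over UT level in migratory dendritic-like cells with exact 95% intervals, for all cells and under 3 alternatives; dotted lines mark 1.5 times. *Il4i1* and *Ccl17* lie left of the left dotted line in every version shown, whereas the points of *Ccr7* and *Ccl22* lie between the dotted lines. *Il12b* moves from -0.03 to 1.003 without its 5 top cells.

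In cDC1-like cells the members were sparse. Over both libraries 2 of them reached 50 UMIs, and of these *Ccl17* was at least 1.5 times higher and *Il12b* at least 1.5 times lower in BUP-treated cells. Among the 6020 genes with at least 50 UMIs there, 2.96% were at least 1.5 times higher and 8.94% at least 1.5 times lower. *Ccl17* had 28 UMIs in UT cells (24.3 CPM) and 70 in BUP-treated cells (48.8 CPM), a log2 ratio of 1.01 (0.35 to 1.69), the opposite sign to migratory dendritic-like cells. Of 70 UT cells 8 had it, and of 88 BUP-treated cells 12, shares whose intervals overlapped, and 1 BUP-treated cell held 22 of the UMIs. *Il12b* had 44 UMIs (38.2 CPM) and 31 UMIs (21.6 CPM), a ratio of -0.82 (-1.53 to -0.13), which became 0.71 without the 5 cells of each library with the most *Il12b*. *Ccr7* had 37 UMIs in UT cells, 22 of them in 1 cell, and 9 in BUP-treated cells. *Ccl22* had 24 and 21 UMIs, *Fscn1* 8 and 5, *Il4i1* 0 and 1 and *Ccr4* 0 and 1. The 10 macrophage markers summed to 1532 CPM (UT) and 1692 CPM (BUP-treated) in cDC1-like cells and the 10 migratory dendritic markers to 347 and 315 CPM. The 5 neutrophil markers summed to 844 and 1335 CPM, the 8 cell cycle genes to 2168 and 1329 CPM, all 8 being lower, and the 3 erythrocyte markers to 397 and 0.697 CPM, and the part of these transcripts in the ratios was not tested. Of the cells with the highest doublet scores 4 were among the 70 and 9 among the 88, and with such cells removed before clustering *Ccl17* was at 1.03 (0.39 to 1.71) and *Il12b* at -0.47 (-1.12 to 0.17), less than 1.5 times lower.

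The *Cd209a* and *Ctsk* cluster was the main place of *Ccl17* and *Ccl22* outside migratory cells. *Ccl17* had 160 UMIs in UT cells (207 CPM) and 107 in BUP-treated cells (157 CPM), with 24.1% and 24.2% of cells positive and a log2 ratio of -0.40. Over 10 alternatives this ratio ran from -1.001 to 0.16 and was negative in 9. *Ccl22* had 76 UMIs (98.2 CPM) and 110 UMIs (161 CPM), a ratio of 0.72, but 1 BUP-treated cell held 70 of the 110 and without the 5 top cells the ratio was -1.36. *Ccr7* had 139 UMIs (180 CPM) and 49 UMIs (71.9 CPM), a ratio of -1.32, but the ratio was -0.57 without the 5 top cells and -0.0098 with the members among the variable genes. Of these 3 members, the only ones with at least 50 UMIs there, *Ccl22* was thus at least 1.5 times higher and *Ccr7* at least 1.5 times lower, where 10.3% of 4311 genes were higher and 11.9% lower, and neither call held under those alternatives. *Il4i1* had 5 and 21 UMIs, 10 of the 21 in 1 cell, *Il12b* 1 and 15, the 15 in 1 cell, and *Fscn1* 2 and 4.

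The make-up of this cluster differed between libraries. The 6 osteoclast-like markers summed to 1532 CPM (UT) and 12838 CPM (BUP-treated), the 7 cDC2 or monocyte-derived markers to 2349 and 1381 CPM, and the 5 neutrophil markers to 142 and 1705 CPM. With 30 principal components 125 of its 145 cells fell into a cluster led by *Cd209a* and *Mgl2*, and in these 125 cells *Ccl17* was at 236 CPM, *Ccl22* at 168 CPM and *Ccr7* at 165 CPM. Another 16 formed a cluster led by *Ctsk* and *Acp5*, where *Ccl17* and *Ccl22* were at 0 and *Ccr7* at 6.2 CPM. The first of these clusters also took in 17 cells from other classes, so the values given under 30 principal components for the *Cd209a* and *Ctsk* cluster include cells that it did not hold before.

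Macrophage-like cells, 2798 UT and 1395 BUP-treated, had the members in few cells. *Ccr7* had a UMI in 1.36% of UT cells (0.96% to 1.86%) and in 1.72% of BUP-treated ones (1.11% to 2.55%), *Ccl17* in 0.46% and 0.72%, *Ccl22* in 0.61% and 0.72% and *Il12b* in 0.36% of both. The shares of the 2 libraries did not differ beyond their intervals. Of 5 members with at least 50 UMIs over both libraries, *Ccr7* (2.59 times) and *Ccl17* (1.54 times) were at least 1.5 times higher in BUP-treated cells, *Ccl22* stood at that limit (1.98 CPM in UT, 2.97 in BUP-treated cells), and *Fscn1* and *Il12b* were lower, where 3.27% of 12168 genes were at least 1.5 times higher and 5.83% lower. Several of these sums rested on single cells. *Ccr7* had 152 UMIs in UT macrophage-like cells (4.85 CPM) and 186 in BUP-treated ones (12.5 CPM), and in the *Ly6i* and *Cxcl3* class alone it had 23 UMIs in 15 UT cells and 154 in 15 BUP-treated cells, 66 of them in 1 cell. The higher pooled level of *Ccr7* was not seen in the other macrophage-like classes, which had 88 and 32 UMIs in the C1q class (0.90 times, log2 interval -0.78 to 0.45) and 41 and 0 UMIs in the cycling class. The *Ly6i* and *Cxcl3* class gave 39.6% (UT) and 54.7% (BUP-treated) of the macrophage-like UMIs, so the pooled sums mix the classes in different proportions. For *Ccl17* it had 1.43 times the UT level (log2 interval -0.14 to 1.16) and for *Ccl22* 1.97 times, against 0.62 times for *Ccl22* in the C1q class. *Il12b* had 63 and 6 UMIs, 47 of the 63 in 1 cell of the C1q class, and *Ccl17* 59 and 43, 33 of the 59 in 1 cell. *Fscn1*, with 87 UMIs in UT (2.78 CPM) and 20 in BUP-treated cells (1.35 CPM), was spread over more cells, 62 of 2798 and 17 of 1395, and had a log2 ratio of -1.04 (-1.82 to -0.33). It was 0.73 times the UT level in the C1q class and 0.27 times in the *Ly6i* and *Cxcl3* class, on 12 and 6 BUP-treated UMIs. *Il4i1* had 27 and 8 UMIs and *Ccr4* 9 and 2. For comparison, neutrophil-like cells, which were shallower, had *Fscn1* in 1.13% (UT) and 0.23% (BUP-treated) of cells. The 5 neutrophil markers summed to 1330 CPM (UT) and 4184 CPM (BUP-treated) in the C1q class and to 681 and 1127 CPM in the *Ly6i* and *Cxcl3* class, where the 3 erythrocyte markers summed to 45.3 and 411 CPM, and their part in the macrophage ratios was not tested.

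The receptors *Ccr7* and *Ccr4* were both detected in T cells. In CD4 and gamma-delta T-like cells *Ccr7* had 85 UMIs in UT (208 CPM) and 109 in BUP-treated cells (315 CPM), a log2 ratio of 0.60 (0.18 to 1.03), where 5.22% of 2738 genes were at least 1.5 times higher and 11.3% lower. The share of cells with a UMI was 16.4% among 110 UT cells (10.0% to 24.6%) and 31.4% among 86 BUP-treated cells (21.8% to 42.3%), and after thinning 12.8% (6.56% to 21.7%) and 25.8% (15.5% to 38.5%). The BUP-treated cells were higher in both measures, with overlapping intervals for the shares. *Ccr4* had 8 UMIs in 6 UT cells and 2 UMIs in 2 BUP-treated cells, too few for a ratio, and none in neutrophil-like cells. Neutrophil markers summed to 217 CPM (UT) and 622 CPM (BUP-treated) in this class, the 8 CD4 or regulatory T markers to 4126 and 3386 CPM and the 10 macrophage markers to 662 and 567 CPM, and their part was not tested.

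Within this class the receptors were set beside the transcripts that separate its cells. *Ccr4* was seen in 3 of 31 cells with *Foxp3*, the factor of regulatory T cells, in 3 of 25 cells with *Cd4* but no *Foxp3*, in 0 of 29 cells with gamma-delta T genes (a share of up to 11.9%) and in 2 of 110 cells with none of these. *Ccr7* was seen in 4 of the 31, 6 of the 25, 1 of the 29 and 33 of the 110. The 110 cells with none of these transcripts held 66 of the 85 UT and 92 of the 109 BUP-treated *Ccr7* UMIs of the class. Cells with *Foxp3* held 0 and 7, those with *Cd4* but no *Foxp3* 17 and 6, and those with gamma-delta T genes 0 and 4. Over the whole class *Cd8a* was at 128 CPM and *Cd8b1* at 200 CPM, against 102 CPM for *Cd4*. Of 45 *Ccr7*-positive cells 11 (24.4%) had *S1pr1*, the receptor for exit from lymph nodes, against 13 of 151 other cells (8.6%). These shares are of cells with a UMI, and no depth was equalized for them. *Ccr8*, the other receptor linked to tumor regulatory T cells, was seen in 12 of the 31 *Foxp3* cells.

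In CD8 T-like cells *Ccr7* had 139 UMIs in UT (62.4 CPM) and 171 in BUP-treated cells (56.1 CPM), a log2 ratio of -0.15, and was seen in 8.04% (5.27% to 11.6%) and 5.59% (3.72% to 8.03%) of cells. In cycling CD8 T-like cells it had 71 UMIs in each library, which were 33.0 CPM (UT) and 22.8 CPM (BUP-treated), a log2 ratio of -0.53 (-1.03 to -0.03). Both CD8 T-like classes had few or no *Ccl17*, *Ccl22* and *Il12b* transcripts, apart from 30 *Ccl22* UMIs, all in 1 cycling BUP-treated cell, and 44 *Fscn1* UMIs in that class, 33 of them in 1 cell.

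Of the ligands and partners of the members, most had few or no UMIs in migratory dendritic-like cells. *Ccl19* and *Ccl21a*, which encode ligands of CCR7 and of which the latter has near-identical gene copies that counting may split, had 0 UMIs in migratory dendritic-like cells. *Il12a*, whose product pairs with p40 to form IL-12, had 1 UMI in UT and 0 in BUP-treated cells. *Il12rb2*, a chain of the IL-12 receptor, had 64 UMIs (114 CPM) and 44 UMIs (78.3 CPM), whereas *Il12rb1*, the other chain, had 4 and 1. *Ccr8* had 0 and 2.

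A list of 54 further genes of dendritic cell maturation and migration was compared in the same way. In migratory dendritic-like cells 36 had at least 50 UMIs, of which 3 were at least 1.5 times higher in BUP-treated cells and 3 lower, with a median log2 ratio of -0.24 against -0.02 over all 3278 genes, of which 7.99% were higher and 7.9% lower. The list's counts were thus near those of all genes. The 3 higher ones were *Cd70* (0.83), *Tnfsf9* (0.83), ligands that costimulate T cells, and *Ccrl2* (0.73), an atypical receptor that presents chemerin. Over both libraries *Ccrl2* was at 5334 CPM in neutrophil-like cells against 356 CPM here, whereas *Cd70* and *Tnfsf9* were highest in migratory dendritic-like cells. The part of other cell types' transcripts and of cells with high doublet scores in the ratios of this list was not tested. The 3 lower ones were *Ebi3* (-0.76), a subunit of IL-27 and IL-35, *Cd40* (-0.60), the receptor through which helper T cells license dendritic cells, and *Icosl* (-0.60, interval -1.47 to 0.23). None of 9 NF-kB genes and none of 6 regulatory genes with enough UMIs was past 1.5 times. The 5 genes of the list with the most UMIs over both libraries were *Ccl5* at 6438 CPM (UT) and 5287 CPM (BUP-treated), *Nfkbia* at 2820 and 3556 CPM, *Cd83* at 1216 and 1114 CPM, *Traf1* at 1182 and 843 CPM and *Cd274*, which encodes PD-L1, at 1161 and 850.3 CPM.

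In cDC1-like cells 32 genes of the list had enough UMIs, 4 being higher and 2 lower, with a median of 0.04 against -0.09 over all genes, of which 2.96% were higher and 8.94% lower. *Tnfsf9* had 12 UMIs in UT and 60 in BUP-treated cells (2.01), so it was higher in both of these classes, and *Pdcd1lg2*, which encodes PD-L2, had 73 and 33 (-1.46). In the *Cd209a* and *Ctsk* cluster 31 had enough, none being higher and 12 lower, with a median of -0.42 against -0.04 over all genes, of which 10.3% were higher and 11.9% lower. Among the 12 were *Pdcd1lg2* (-1.24), *Ccr2* (-1.21), *Dpp4* (-1.13) and *Cd274* (-0.91), beside the higher osteoclast-like markers given above, whose part in this was not tested. In CD4 and gamma-delta T-like cells 24 had enough, 1 being higher and 5 lower, with a median of -0.12 against -0.08 over all 2738 genes, of which 5.22% were higher and 11.3% lower.

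In macrophage-like cells 45 genes of the list had enough UMIs, 5 being higher and 1 lower, with a median of 0.16 against -0.09 over all 12168 genes, of which 3.27% were higher and 5.83% lower. Because the 3 macrophage-like classes are mixed differently in the libraries, counts and ratios within classes stand beside the pooled ones. In the C1q class 4 of 40 genes were higher and none lower (median 0.18), where 3.97% of 10723 genes were higher and 3.35% lower. In the *Ly6i* and *Cxcl3* class 2 of 44 were higher and 2 lower (median 0.0066), where 2.06% of 10311 genes were higher and 3.35% lower. In the cycling class 2 of 34 were higher and 4 lower (median -0.046), where 3.6% of 8645 genes were higher and 8.49% lower. Over all macrophage-like cells *Il12a* had 53 UMIs in UT (1.69 CPM) and 68 in BUP-treated cells (4.58 CPM), a log2 ratio of 1.44 (0.90 to 1.99), and *Il6*, which encodes an inflammatory cytokine, had 161 (5.14 CPM) and 192 (12.9 CPM), a ratio of 1.33 (1.02 to 1.64). Within the *Ly6i* and *Cxcl3* class, which held most of their UMIs, the ratios were 0.89 (0.31 to 1.47) for *Il12a* and 0.94 (0.61 to 1.28) for *Il6*. *Cd80*, a costimulatory ligand, had a pooled ratio of 0.64, with 0.32 in that class and 0.69 in the C1q class, and *Il23a*, whose product pairs with p40 to form IL-23, had 0.64, with 0.35 in that class. The chemokine gene *Ccl5* had 0.66, with 0.052 in that class and 1.38 in the C1q class. *Ccl8* had -0.66, with -1.49 in that class and -0.12 in the C1q class, where its level was highest. In CD8 T-like cells 34 had enough, 2 being higher and 5 lower, with a median of -0.17 against -0.08 over 8256 genes, of which 2.17% were higher and 7.04% lower. *Ccl5* had 837 CPM in UT CD8 T-like cells and 1298 CPM in BUP-treated ones, a ratio of 0.63 (0.55 to 0.71), and *Ccr8* had -1.25 (-1.73 to -0.78).

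**Figure D5:**
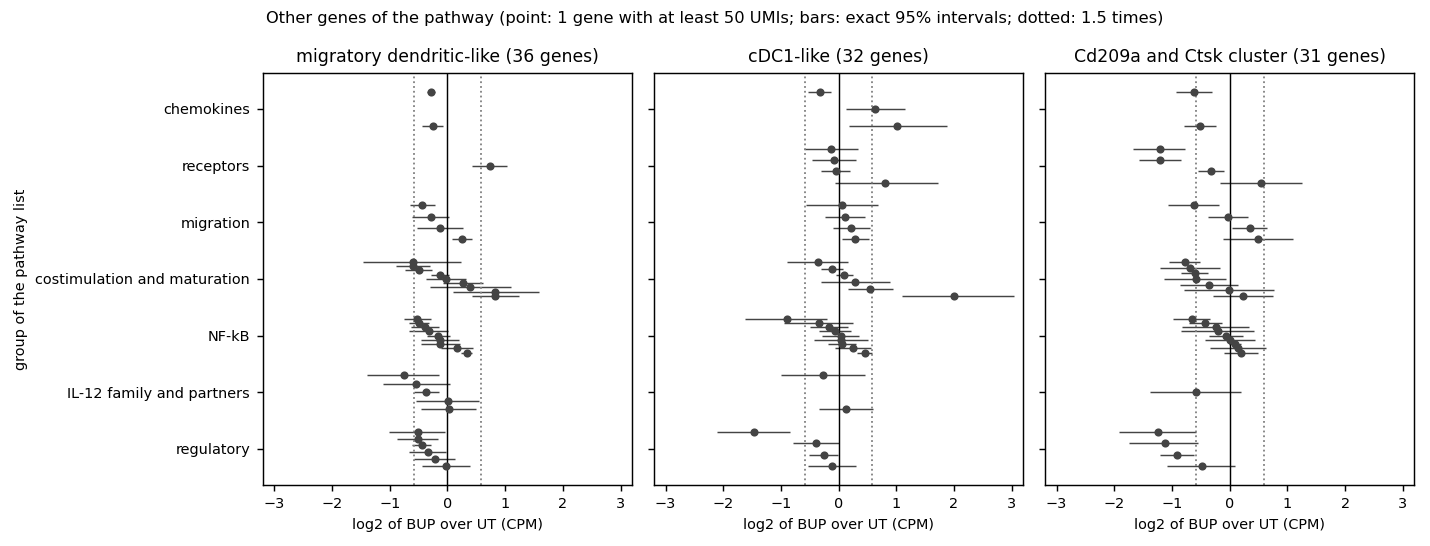
Log2 ratio of BUP-treated over UT level with exact 95% intervals for each gene of the pathway list with at least 50 UMIs, by group, in 3 classes; dotted lines mark 1.5 times. In migratory dendritic-like cells 30 of 36 points lie between the dotted lines, and in the *Cd209a* and *Ctsk* cluster 12 of 31 lie left of them and none to the right.

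The genes whose levels followed a member most closely over 44 points (22 classes in 2 libraries, which share libraries and depth) were found by Pearson r of log2(CPM + 1). *Ccl17* and *Ccl22* were each other's closest (0.918), followed for *Ccl17* by *Adam23* (0.902) and *Timd4* (0.900), and for *Ccl22* by *Strip2* (0.880) and *Il12b* (0.879). *Il12b* was followed by *Mab21l3* (0.964), *Strip2* (0.934) and *Gm13546* (0.904), and *Il4i1* by *Dnah2* (0.825), *Ccl22* (0.823) and *Strip2* (0.815). The closest to *Fscn1* were *Cacnb3* (0.909), *Syn3* (0.855) and *Adcy6* (0.837), and to *Ccr7* *Slc4a8* (0.860), *Irf4* (0.846) and *P2ry10* (0.828). *Ccr4*, with 43 UMIs in all, was under the 200 UMIs asked for. By Spearman's rho none of the 3 genes was named again for *Ccl17*, *Ccl22*, *Il12b* or *Il4i1*.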

How the data were processed

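Single-cell RNA was measured with 10x 5′ chemistry in 1 UT and 1 BUP-treated library. Per the labels, the authors made the deposited counts, whole-number UMIs per gene and barcode without normalization, with Cell Ranger 8.0.1 on GRCm39. The libraries hold 83228442 and 89918925 UMIs in 7556 and 7221 barcodes. As in the study's methods, barcodes with over 100 UMIs and under 20% mitochondrial UMIs were kept. Clustering used Seurat 5.3.0 in R 4.3.3 (2000 variable genes without the members, 20 principal components, resolution 0.5, no integration), and immune clusters were clustered again. Scrublet in scanpy 1.11.5 called 1 UT and 155 BUP-treated doublets. Why the calls differed so much was not tested, so they were not used and no cell was removed in the main values. Sums and intervals used Python 3.11.15, numpy 2.4.6, scipy 1.17.1 and pandas 2.3.3. They were run on simulated counts drawn independently from Poisson and binomial models. That run cannot show how the intervals do where a gene's UMIs are gathered in few cells. Positions are from GENCODE M39.

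Members, gene lists and rules were chosen with earlier results of these data known. Named genes are the members, the 3 genes most like each, genes of the pathway list at least 1.5 times apart (up to 5 per direction and class) or most abundant, markers and the members' partners. Alternatives changed the cell filter, resolution, principal components, variable genes, doublets, scaling, depth, summary, UMI minimum and likeness measure. Some genes that this rule names are not reported here.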

Additional observations from a re-analysis of the deposited data

Results flagged for a closer look

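Barcodes removed for a high mitochondrial share (393 UT and 445 BUP-treated) entered no comparison, yet held some members above the level that 3 UMIs would give, 5.07 CPM for UT and 4.59 CPM for BUP-treated barcodes. In the UT library *Ccr7* was at 137 CPM (81 UMIs), *Fscn1* at 25.4 CPM, *Il4i1* at 15.2 CPM and *Ccl22* at 8.45 CPM. In the BUP-treated library *Fscn1* was at 21.4 CPM, *Ccr7* at 10.7 CPM (7 UMIs) and *Ccl22* at 7.65 CPM. The *Ccr7* level thus differed between the libraries in the removed barcodes, which was not tested.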

How the results depend on the processing

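Of 336 values recomputed under an alternative, 267 stayed within the counting interval of the main value or, where that interval did not apply (mean log differences, counts of genes), kept their direction or nearly their count. Of the 120 ratios among them, 15 had the other sign than the main ratio, 9 of them in migratory dendritic-like cells and 5 from a main ratio of at least 1.5 times. All 30 recomputed immune shares of the 3 classes described stayed within their counting intervals. In migratory dendritic-like cells *Il4i1*, *Ccl17* and *Fscn1* were lower in BUP-treated cells in all 10 alternatives (log2 ratios -1.26 to -0.75, -0.997 to -0.63 and -0.66 to -0.20), *Ccr7* in 9, *Ccl22* in 8 and *Il12b* in 4. The cause of a shift was not tested unless stated. No paired analysis was possible because each condition had 1 library. The alternatives without the 5 top cells or without shared barcodes were chosen after seeing the data.

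Without the highest doublet scores the ratios in migratory dendritic-like cells were 0.094 for *Ccr7*, -0.63 for *Ccl17*, 0.040 for *Ccl22*, -0.27 for *Fscn1*, 0.45 for *Il12b* and -0.75 for *Il4i1*, and the levels 4440, 551, 1863, 3834, 840.1 and 524 CPM. At 2000 UMIs per cell *Fscn1* was -0.20 and *Il12b* 0.50, with levels of 4074 CPM for *Ccr7* and 381 CPM for *Ccl17*. With 30 principal components *Ccr7* was -0.065, *Ccl22* -0.21 and *Il12b* 0.68, with levels of 3543 CPM for *Fscn1* and 624 CPM for *Il12b*. As a difference of mean log-normalized values *Ccl22* was 0.082 and *Il12b* 0.30. Without the 5 top cells *Fscn1* was -0.51 and *Il12b* 1.003.

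In cDC1-like cells *Il12b* changed to 0.71 without the 5 top cells. In the *Cd209a* and *Ctsk* cluster *Ccr7* was -2.32 with 30 principal components, -0.0098 with members among the variable genes, -1.93 thinned and -0.57 without the 5 top cells. There *Ccl17* was -1.001, -0.86, 0.16 and -0.80, and *Ccl22* -0.21, -0.56, 1.28 and -1.36 under the same settings, and *Ccl22* was -0.053 as a mean log difference. In CD4 and gamma-delta T-like cells *Ccr7* was 1.17 with the strict cell filter, 1.07 with 30 principal components and 1.08 without the 5 top cells. At 200 UMIs per gene the pathway list had 2 higher genes and 1 lower gene in migratory dendritic-like cells, 0 higher and 0 lower in cDC1-like cells and 7 lower in the *Cd209a* and *Ctsk* cluster.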

Other observations

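*Ccr7* was also high in a small set of cells with B-cell genes. At a resolution of 1.0, of the 80 cells of the *Siglech* and *Iglc3* cluster 25 fell into a cluster led by *Cd79a* and *Ms4a1*, genes of B cells, with *Ccr7* at 1318 CPM (78 UMIs) in these 25, and 54 into one led by *Klk1* and *Siglech*, with *Ccr7* at 1.7 CPM (1 UMI). With 30 principal components 25 and 51 of its cells fell into the corresponding clusters and had 1262 and 1.8 CPM. The cells with B-cell genes held no UMI of *Ccl17*, *Ccl22* or *Il12b*.

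Of the 54 pathway genes 26 had their highest level of all classes in migratory dendritic-like cells, among them 8 of 9 costimulation and maturation genes, 6 of 9 NF-kB genes and 6 of 8 regulatory genes, but none of 8 receptors. Of 13341 genes with at least 200 UMIs, 637 (4.77%) were highest there. The list was assembled with earlier results of these data known.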
